A study of Mus musculus with 16 samples.

Results

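10 genes of the sarcomere's regulatory and elastic filaments were followed in mouse hearts under pressure overload: the troponin genes Tnnt2, Tnnt1, Tnni3, Tnni1 and Tnnc1, the tropomyosin genes Tpm1, Tpm2 and Tpm3, the titin gene Ttn, and Mybpc3, which encodes cardiac myosin-binding protein C. They were chosen by name, as the 10 of 55573 rows of the count table that carry these symbols. Of these, 9 could be tested, and Tnni1 was listed at 0 counts in every mouse. RNA came from the heart apex of 16 male wild-type mice, and each sample was taken as 1 mouse. All mice had received a virus on postnatal day 1: an adeno-associated virus of serotype 9 (AAV9) whose chicken cardiac troponin T (cTNT) promoter limits expression to cardiomyocytes. It carried either GFP or Cardinal, a long noncoding RNA of the heart. With either virus, mice had sham surgery or transverse aortic constriction (TAC), a ligature that narrows the aorta and raises the pressure against which the left ventricle pumps, and hearts were taken 4 weeks after surgery. The 4 groups are named by virus and surgery, as in AAV9-GFP sham, and each held 4 mice. The strain was not given in the sources used here.

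The thin filament is a helix of actin in which tropomyosin covers the myosin-binding sites at rest. Troponin C binds the calcium that starts a beat, troponin I is the inhibitory subunit, and troponin T ties the complex to tropomyosin. The adult mouse ventricle uses the cardiac genes Tnnt2, Tnni3 and Tnnc1 with alpha-tropomyosin from Tpm1, while Tnni1, the slow-skeletal troponin I, is the form of the fetal heart, and Tnnt1 and the Tpm2 and Tpm3 products belong mainly to skeletal and smooth muscle or to the cytoskeleton. Titin is the elastic spring that spans from the Z-disc to the M-band, and cardiac myosin-binding protein C sits on the thick filament and tunes how myosin heads meet actin.

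Counted reads per mouse ranged from 16441997 to 21904589, and values are given in CPM, counts scaled to a library of a fixed size, after edgeR's TMM normalization. The lowest total belonged to AAV9-Cardinal sham replicate 4. Cardinal, listed as Gm12295, lay between 18.3 and 93.9 CPM in the mice given AAV9-Cardinal and between 3.42 and 7.24 CPM in those given AAV9-GFP. AAV9-Cardinal TAC replicate 1 stood apart from the other mice of its group: it had 93.9 CPM of Gm12295 against 18.3 to 20.6 CPM in the other mice, and 95.5 CPM of the collagen gene Col1a1 against 46.0 to 52.4 CPM. For the troponin, tropomyosin, titin and Mybpc3 genes, calls that change with it are given with and without it. For the gene lists this is done in part. In RNA from whole tissue, fewer cells of a type and less RNA per cell cannot be told apart.

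The upstream sequences of 5 of the genes are shown because the vector itself is driven by a troponin T promoter and because these genes moved in different directions under TAC. Each is the 250 bases before the annotated start, 5′ to 3′ in the direction of the gene, from RefSeq on GRCm38.p6, and all 10 genes had an entry. Capitals mark the MCAT core, CATTCC or its reverse complement GGAATG, and the MEF2 box, both known from muscle promoters.
Tnnt2 (chr1:135836084-135836333, plus strand): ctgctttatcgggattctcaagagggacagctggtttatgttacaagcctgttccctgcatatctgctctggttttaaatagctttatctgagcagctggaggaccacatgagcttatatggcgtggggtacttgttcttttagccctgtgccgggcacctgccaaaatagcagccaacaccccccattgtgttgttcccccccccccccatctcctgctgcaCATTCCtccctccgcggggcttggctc
Tpm1 (chr9:67049214-67049463, minus strand): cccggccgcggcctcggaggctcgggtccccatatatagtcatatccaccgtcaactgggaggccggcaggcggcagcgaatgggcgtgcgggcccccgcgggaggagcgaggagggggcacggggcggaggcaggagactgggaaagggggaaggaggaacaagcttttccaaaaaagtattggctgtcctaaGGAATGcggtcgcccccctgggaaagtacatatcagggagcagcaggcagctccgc
Tnnc1 (chr14:31208062-31208311, plus strand): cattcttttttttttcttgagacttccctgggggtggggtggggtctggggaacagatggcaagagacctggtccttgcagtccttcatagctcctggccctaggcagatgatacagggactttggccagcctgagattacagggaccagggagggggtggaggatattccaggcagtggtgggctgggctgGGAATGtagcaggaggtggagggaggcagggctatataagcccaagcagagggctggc
Mybpc3 (chr2:91117894-91118143, plus strand): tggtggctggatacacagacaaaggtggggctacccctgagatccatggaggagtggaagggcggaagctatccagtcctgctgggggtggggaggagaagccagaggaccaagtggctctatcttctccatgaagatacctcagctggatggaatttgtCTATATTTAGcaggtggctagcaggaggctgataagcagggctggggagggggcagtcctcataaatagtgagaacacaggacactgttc
Tpm2 (chr4:43523555-43523804, minus strand): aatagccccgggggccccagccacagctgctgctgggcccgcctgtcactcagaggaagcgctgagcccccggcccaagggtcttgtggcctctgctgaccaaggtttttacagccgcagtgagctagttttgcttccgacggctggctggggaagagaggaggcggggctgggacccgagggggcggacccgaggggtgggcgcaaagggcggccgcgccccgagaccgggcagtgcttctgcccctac
An MCAT core was found upstream of Tnnt2, Tpm1 and Tnnc1, beginning 27, 56 and 58 bases before the start. Tnnt2, Tnni1 and Tpm3 had 2 windows each, and a match in either was counted for the gene. The other Tnnt2 window, chr1:135836739-135836988, held neither an MCAT core nor GATAA. The MCAT core was present in 12.6% of 32851 such windows over all genes. A MEF2 box was found upstream of Mybpc3 and Ttn and in 2.92% of all windows. The core GATAA, on either strand, was found upstream of Tnnt2, Tpm3 and Mybpc3 and in 22.6% of all windows. No match to the MCAT core or the MEF2 box was found in the windows of Tpm2, Tnni3, Tnnt1, Tnni1 and Tpm3. For Tnnt1, a stretch of bases just after the start was not found unbroken in an annotated transcript of the gene. The searched strings do not overlap each other. A match is a description of the letters only, and its part in the response to TAC was not tested.

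A lower and an upper tier of level were seen in AAV9-GFP sham hearts. Per kilobase of exon, Tnnc1 stood at 1383 ± 56.8 CPM (SD, n = 4), Tnni3 at 1275 ± 60.3, Tpm1 at 1011 ± 68.7, Tnnt2 at 671 ± 36.4 and Mybpc3 at 574 ± 40.2. Ttn, whose exons add up to 116825 bases, stood at 33.4 ± 2.53 CPM per kilobase. The non-cardiac paralogs were far lower, with Tpm3 at 5.92 ± 0.549, Tnnt1 at 5.13 ± 0.859 and Tpm2 at 4.03 ± 0.300 CPM per kilobase. Neighbours in this order whose mice overlapped were Tnnc1 and Tnni3, Tpm3 and Tnnt1, and Tnnt1 and Tpm2. The order of the upper tier depended on the length used. Per kilobase of the longest annotated coding transcript, Tnnt2 led with 4333 ± 235 CPM, ahead of Tnni3 with 2883 ± 136, Tpm1 with 2269 ± 154 and Tnnc1 with 1997 ± 82.0, while Mybpc3, Ttn, Tpm3, Tnnt1 and Tpm2 kept their places. On this scale the mice overlapped between Tpm1 and Tnnc1.

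**Figure D1:**
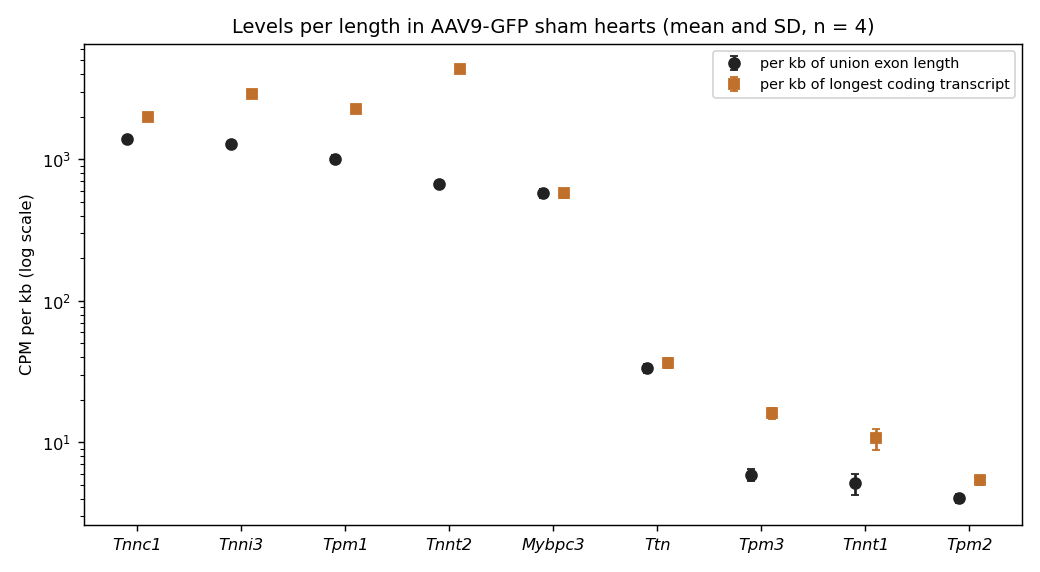
Mean CPM per kilobase in AAV9-GFP sham hearts (y axis, log scale) for 9 genes, per kilobase of union exon length (circles) and of the longest coding transcript (squares), with the SD over 4 mice as bars. Mybpc3 and the cardiac troponin and tropomyosin genes sit at 574 or above, Ttn near 33.4 to 36.5, and Tpm3, Tnnt1 and Tpm2 between 4.03 and 16.1.

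TAC in AAV9-GFP hearts asks how the filament genes respond to pressure overload with a control virus. Among the 9 genes tested, 4 rose (Tpm2, Tpm3, Mybpc3 and Tnnc1) and 4 fell (Tnni3, Tnnt2, Tpm1 and Tnnt1) by edgeR's quasi-likelihood test with a Benjamini-Hochberg adjusted p under 0.05, the threshold used throughout. Over all 16857 genes tested, 8.49% rose and 8.92% fell. Ttn did not pass the test. The median log2 fold change was 0.00016 over the 9 genes and 0.0050 over all genes tested.

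Tnnt2, cardiac troponin T, is a plus-strand gene at chr1:135836354-135852260 (GRCm38, used for all positions here). It measured 4849, 5152, 5530.4 and 5269 CPM in the AAV9-GFP sham mice and 4209, 3821, 4098 and 3786 CPM in the AAV9-GFP TAC mice. Every TAC mouse was below every sham mouse. The log2 fold change was -0.39 (SE 0.060, edgeR adjusted p = 0.000493), so that Tnnt2 fell by 23.5%.

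Tnni3, cardiac troponin I, lies on chromosome 7 from 4518305 to 4524229 on the minus strand. Its values were 2511, 2629, 2576 and 2801 CPM in the AAV9-GFP sham mice and 1857, 1673, 1922 and 1832 CPM in the AAV9-GFP TAC mice. The groups did not overlap, and Tnni3 had the largest fall of the 9 genes, with a log2 fold change of -0.53 (SE 0.077, edgeR adjusted p = 0.000301). Of the exon bases of Tnni3, 4.17% also belong to Dnaaf3 on the same strand, which measured at most 9.92 CPM in any mouse.

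Tnnc1, troponin C of cardiac and slow muscle, lies on chromosome 14 from 31208312 to 31211729 on the plus strand. It moved the other way from its partners in the complex. The AAV9-GFP sham mice had 1448, 1515, 1372 and 1424 CPM and the AAV9-GFP TAC mice 1547, 1567, 1697 and 1595 CPM, with every TAC mouse above every sham mouse. The log2 fold change of 0.15 (SE 0.049, edgeR adjusted p = 0.0437) lay just past the threshold. This call of Tnnc1 was lost without any of AAV9-GFP sham replicates 1, 3 or 4, AAV9-GFP TAC replicates 3, 4 or 7, AAV9-Cardinal sham replicate 2 or AAV9-Cardinal TAC replicate 5, with edgeR adjusted p up to 0.125.

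The slow-skeletal paralogs were the counterparts to be compared with the adult forms. Tnni1, on chromosome 1 from 135779434 to 135810989 on the plus strand, had 0 counts in all 16 mice, and a count of 0 allows up to 3 counts in a mouse, between 0.00524% and 0.00752% of that mouse's Tnni3 counts. Among the 21980 protein-coding genes of the table, 24.8% were at 0 in every mouse. How the authors' counting treated thinly covered genes is not given in the sources used here, so a very low level of Tnni1 was not detectable here. Its genomic neighbour Tnnt2 starts 25364 bases downstream and was among the most abundant of these genes. Tnnt1, the slow-skeletal troponin T, lies on chromosome 7 from 4504570 to 4516382, 1922 bases from Tnni3. It ranged from 8.80 to 13.2 CPM in AAV9-GFP sham mice and from 7.13 to 10.2 CPM in AAV9-GFP TAC mice. The groups overlapped, and the log2 fold change was -0.48 (SE 0.15, edgeR adjusted p = 0.0380). This call of Tnnt1 was lost without any of AAV9-GFP sham replicates 2, 3 or 4 or AAV9-GFP TAC replicates 3, 4 or 7, with edgeR adjusted p up to 0.115.

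Tpm1, the source of the alpha-tropomyosin of heart muscle, lies on chromosome 9 from 67022590 to 67049406 on the minus strand. It measured 5900.3, 6724, 6728 and 6883 CPM in the AAV9-GFP sham mice and 5258, 5411, 5693 and 5227 CPM in the AAV9-GFP TAC mice. The groups did not overlap and the log2 fold change was -0.28 (SE 0.058, edgeR adjusted p = 0.00356).

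Tpm2, the beta-tropomyosin gene, is on chromosome 4 from 43514711 to 43523765 on the minus strand. The AAV9-GFP sham mice had 12.9, 10.8, 11.8 and 11.5 CPM and the AAV9-GFP TAC mice 21.1, 22.9, 24.1 and 15.7 CPM. Every TAC mouse was above every sham mouse, although AAV9-GFP TAC replicate 7 rose less than the others. This was the largest change of the 9 genes, with a log2 fold change of 0.84 (SE 0.12, edgeR adjusted p = 0.000267), a rise by 78.8%. The 3 tested genes whose log2 CPM over 16 mice lay closest to that of Tpm2, after each gene's mean was subtracted, were Gm6375, Haus8 and Zbtb7c, with root mean square differences of 0.179, 0.191 and 0.192 against a median of 0.451 over all tested genes.

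Tpm3, which yields slow-muscle and cytoskeletal tropomyosins, is on chromosome 3 from 90072649 to 90100902 on the plus strand. It ranged from 31.8 to 39.9 CPM in AAV9-GFP sham mice and from 39.3 to 49.0 CPM in AAV9-GFP TAC mice, with a log2 fold change of 0.27 (SE 0.083, edgeR adjusted p = 0.0362). The groups overlapped between AAV9-GFP sham replicate 4 and AAV9-GFP TAC replicate 1. Its counts are uncertain, because 23.2% of its 50-base stretches also occur in the copy Tpm3-rs7, which had 10.5 to 16.5 CPM. The summed counts of Tpm3 and Tpm3-rs7 gave the same log2 fold change of 0.27 (edgeR adjusted p = 0.0297). The call of Tpm3 was lost without any of AAV9-GFP sham replicates 1, 2 or 3 or AAV9-GFP TAC replicates 3, 4 or 7, with edgeR adjusted p up to 0.127.

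Mybpc3 lies on chromosome 2 from 91118144 to 91136516 on the plus strand. Its values were 2169, 2575, 2391 and 2423 CPM in the AAV9-GFP sham mice and 2752, 2609.7, 2797 and 2885 CPM in the AAV9-GFP TAC mice. All TAC mice were above all sham mice, with a log2 fold change of 0.21 (SE 0.054, edgeR adjusted p = 0.0147).

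Ttn lies on chromosome 2 from 76703980 to 76982547 on the minus strand. It measured 4243, 3734, 3587 and 4039 CPM in the AAV9-GFP sham mice and 3961, 3328, 4159 and 4156 CPM in the AAV9-GFP TAC mice. The groups overlapped widely and the log2 fold change was 0.00016 (SE 0.075, edgeR adjusted p = 0.999). Counts per gene cannot show which titin exons were used.

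**Figure D2:**
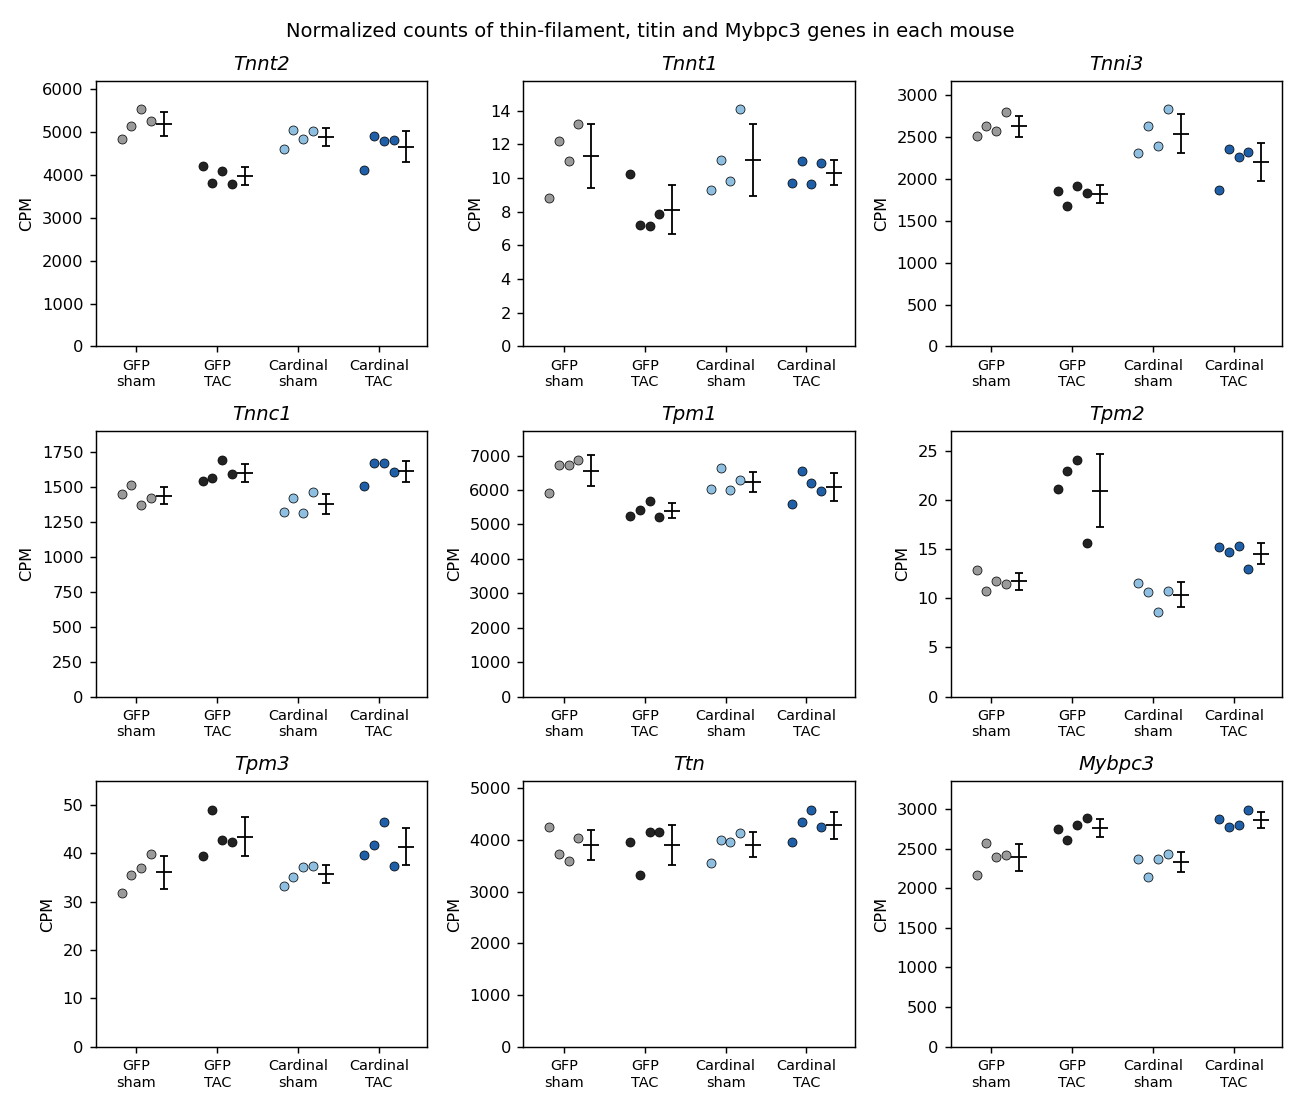
CPM (y axis, from 0) of 9 genes in each of 16 mice, with a panel per gene and a column per group. Points are mice, and the bar beside each column is the mean with its SD. In the AAV9-GFP groups Tnnt2, Tnni3 and Tpm1 are lower in every TAC mouse than in every sham mouse, and Tpm2, Tnnc1 and Mybpc3 are higher.

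TAC in AAV9-Cardinal hearts asks the same with the vector that carries Cardinal. Here 3 of the 9 genes rose, Mybpc3, Tnnc1 and Tpm2, and 0 fell. Over all genes tested, 3.10% rose and 3.38% fell. At an unadjusted p under 0.05 there were 5 of the 9 genes and 3682 of all 16857. The median log2 fold change was 0.13 over the 9 genes and -0.00047 over all genes tested.

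Mybpc3 measured 2364, 2148, 2367 and 2433 CPM in the AAV9-Cardinal sham mice and 2879, 2769, 2795 and 2991 CPM in the AAV9-Cardinal TAC mice, without overlap. Its log2 fold change was 0.30 (SE 0.054, edgeR adjusted p = 0.00643). Tnnc1 had 1322, 1424, 1314 and 1462 CPM after sham surgery and 1509, 1669, 1671 and 1605 CPM after TAC, again without overlap, with a log2 fold change of 0.23 (SE 0.049, edgeR adjusted p = 0.0164). Without AAV9-Cardinal TAC replicate 5 the adjusted p of Tnnc1 was 0.0598 by edgeR. Mybpc3 and Tnnc1, together with Tpm2, were the genes whose rise passed the test with either virus.

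Tpm2 had 11.6, 10.6, 8.60 and 10.7 CPM in the AAV9-Cardinal sham mice and 15.18, 14.71, 15.32 and 12.98 CPM in the AAV9-Cardinal TAC mice. Every TAC mouse was above every sham mouse, with a log2 fold change of 0.49 (SE 0.12, edgeR adjusted p = 0.0303). This call of Tpm2 was lost without any of AAV9-Cardinal sham replicates 2, 3 or 4 or AAV9-Cardinal TAC replicates 4 or 5, with edgeR adjusted p up to 0.0902.

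The genes that fell with AAV9-GFP did not pass the test with AAV9-Cardinal. Tnnt2 measured 4607, 5055, 4834 and 5035 CPM after sham surgery and 4123, 4919, 4793 and 4822 CPM after TAC, with a log2 fold change of -0.07 (SE 0.059, edgeR adjusted p = 0.581). Tnni3 measured 2315, 2632, 2397 and 2832 CPM after sham surgery and 1872, 2365, 2259 and 2319 CPM after TAC, with a log2 fold change of -0.21 (SE 0.077, edgeR adjusted p = 0.123). In both genes AAV9-Cardinal TAC replicate 1 was the lowest of all 8 mice. Without it, the log2 fold changes were -0.0082 for Tnnt2 and -0.13 for Tnni3.

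Tpm1 measured 6017, 6626, 6008 and 6297 CPM in the AAV9-Cardinal sham mice and 5582, 6551, 6203 and 5977 CPM in the AAV9-Cardinal TAC mice, with a log2 fold change of -0.04 (SE 0.058, edgeR adjusted p = 0.782). Tnnt1 ranged from 9.31 to 14.1 CPM after sham surgery and from 9.639 to 10.997 CPM after TAC (log2 fold change -0.10, SE 0.15, edgeR adjusted p = 0.776). The mice overlapped between the surgeries for Tnnt2, Tnni3, Tpm1 and Tnnt1. Tpm3 ranged from 33.3 to 37.37 CPM after sham surgery and from 37.43 to 46.5 CPM after TAC (log2 fold change 0.21, SE 0.083, edgeR adjusted p = 0.147). Every TAC mouse was thus above every sham mouse for Tpm3, by a narrow margin, without a call. Ttn ranged from 3555 to 4128 CPM and from 3962 to 4585 CPM (log2 fold change 0.13, SE 0.075, edgeR adjusted p = 0.336).

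**Figure D3:**
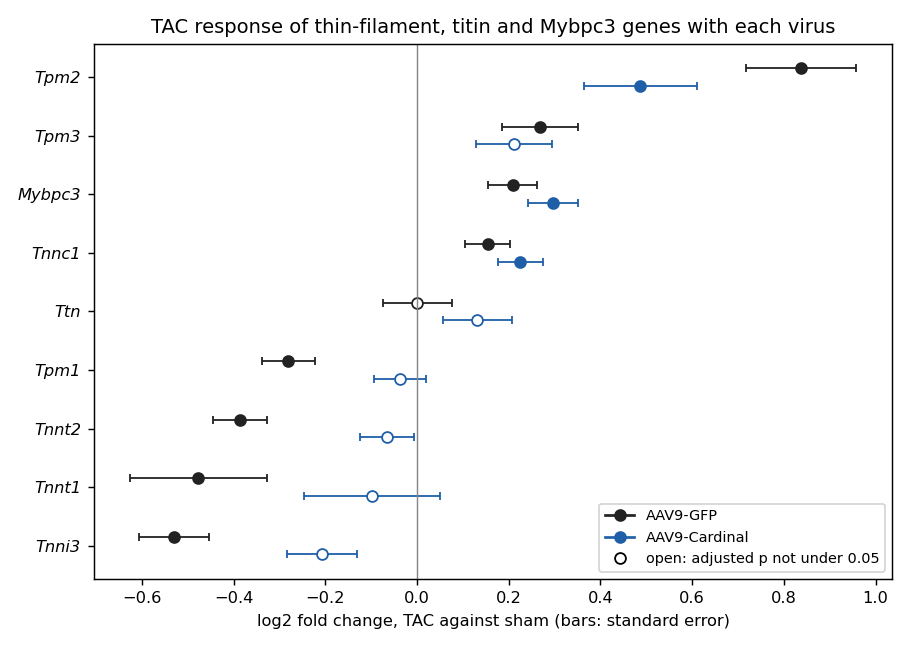
Log2 fold change of TAC against sham (x axis) for 9 genes with AAV9-GFP (black) and AAV9-Cardinal (blue). Bars are standard errors and open circles did not pass an adjusted p under 0.05. The responses lie between -0.53 and 0.84 with AAV9-GFP and between -0.21 and 0.49 with AAV9-Cardinal.

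The viruses were next compared at each surgery. In sham hearts 0 of the 9 genes differed by virus in edgeR's test, and 0 had an unadjusted p under 0.05, against 437 of all 16857. Over all genes tested 0.0119% differed. DESeq2 likewise called 0 of the 9 genes. The log2 fold changes lay between -0.18 for Tpm2 and 0.0040 for Ttn.

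In TAC hearts 0 of the 9 genes passed edgeR's adjusted threshold in the fit of all 16 mice, and 0.101% of all genes tested did. At an unadjusted p under 0.05 there were 5 of the 9 genes and 2528 of all 16857. Tpm2 was lower with AAV9-Cardinal in every mouse, with a log2 fold change of -0.53 (SE 0.12, edgeR adjusted p = 0.0759). The margin was narrow, with 15.32 CPM in AAV9-Cardinal TAC replicate 5 and 15.65 CPM in AAV9-GFP TAC replicate 7. The log2 fold change was 0.23 (SE 0.059, edgeR adjusted p = 0.0992) for Tnnt2, 0.28 (SE 0.077, edgeR adjusted p = 0.117) for Tnni3 and 0.17 (SE 0.058, edgeR adjusted p = 0.182) for Tpm1. The remaining genes had edgeR adjusted p of 0.291 or more, with values for Tnnt1 of 0.34 (SE 0.15).

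The call of this difference depended on the fit. Without AAV9-Cardinal TAC replicate 1, edgeR called Tnnt2 (log2 fold change 0.29, SE 0.052, adjusted p = 0.0114), Tnni3 (0.35, SE 0.066, adjusted p = 0.0153) and Tpm2 (-0.55, SE 0.13, adjusted p = 0.0395), 3 of 9 genes against 3.13% of all genes tested. DESeq2 with all mice called the same 3 genes, with adjusted p of 0.0112 for Tnnt2, 0.0199 for Tnni3 and 0.00468 for Tpm2, against 4.75% of the 9010 genes to which it gave an adjusted p. Without AAV9-GFP TAC replicate 7, edgeR called Tpm2 alone of the 9 genes (log2 fold change -0.64, adjusted p = 0.0361), against 8 of all 17074 genes tested. That mouse had the lowest Tpm2 of its group, 15.7 CPM against 21.1 to 24.1 CPM. AAV9-Cardinal TAC replicate 1 had 4123 CPM of Tnnt2 against 4793 to 4919 CPM in the other mice of its group. It had 1872 CPM of Tnni3 against 2259 to 2365 CPM, but its 15.2 CPM of Tpm2 lay within their range. It also had the highest Gm12295 and the highest sum of fibroblast markers of its group, 567 against 386 to 410 CPM. The part of these values in the result was not tested.

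**Figure D4:**
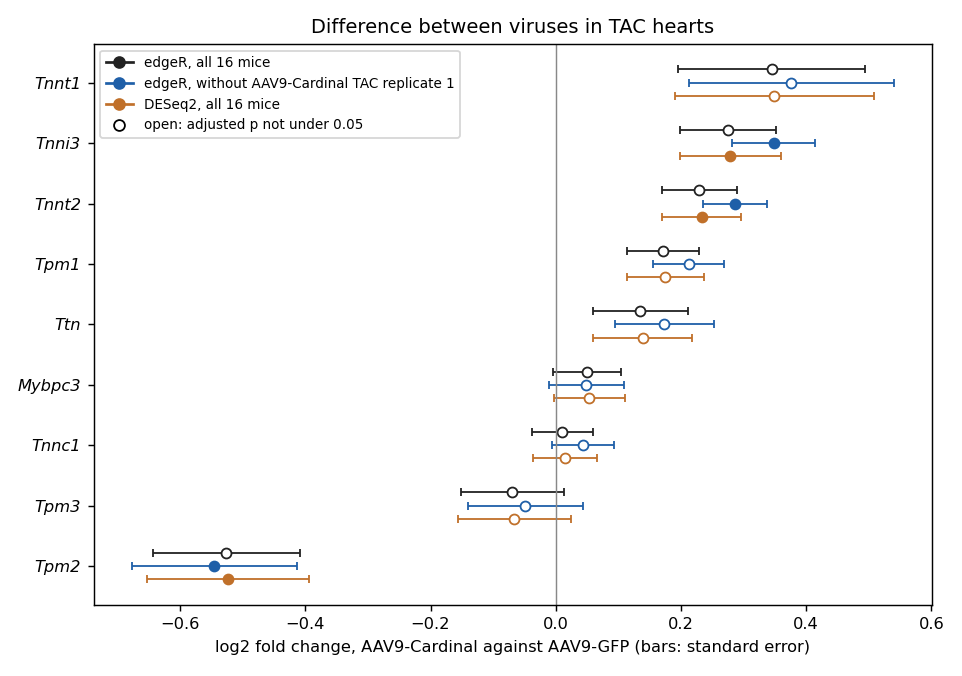
Difference between the viruses in TAC hearts, as AAV9-Cardinal over AAV9-GFP on the log2 scale (x axis), for 9 genes, from edgeR with all mice (black), edgeR without AAV9-Cardinal TAC replicate 1 (blue) and DESeq2 (orange). Bars are standard errors and filled circles passed an adjusted p under 0.05. Values for a gene differ little between fits, and Tnnt2, Tnni3 and Tpm2 are called in 2 of the 3 fits shown. Of the 16 edgeR fits that each left out 1 mouse, 1 called Tnnt2, 1 called Tnni3 and 2 called Tpm2.

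The difference in TAC response between the viruses was tested as an interaction. It passed for 0 of the 9 genes with edgeR and all mice, against 0.0119% of all genes tested, and 3 of the 9 had an unadjusted p under 0.05, as did 1722 of all 16857. The response of Tnnt2 was higher with AAV9-Cardinal by 0.32 on the log2 scale (SE 0.084, edgeR adjusted p = 0.302), that of Tnni3 by 0.32 (SE 0.11, edgeR adjusted p = 0.350) and that of Tpm1 by 0.24 (SE 0.082, edgeR adjusted p = 0.350). Tnnt2 passed without AAV9-Cardinal TAC replicate 1 (0.37, SE 0.070, edgeR adjusted p = 0.0383), where 0.463% of all genes tested were called. It also passed with DESeq2 (adjusted p = 0.0225), where 5.53% of the 2476 genes with an adjusted p were called. The 4 genes that passed downward with AAV9-GFP and not with AAV9-Cardinal are therefore not shown to respond differently by edgeR's fit of all mice, while DESeq2 called Tnnt2 alone.

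Ratios of paralogs compared the minor with the major form within each mouse, where library scaling cancels. Of 4 ratios planned, that of Tnni1 to Tnni3 could not be formed. The other 3 were compared in 5 ways by exact two-sided permutation of the log2 ratio, 15 tests in all, in which 4 mice against 4 cannot go below p = 0.0286. After Benjamini-Hochberg adjustment the smallest value was 0.0714, so no ratio passed an adjusted threshold of 0.05.

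The ratio of Tpm2 to Tpm1 moved most. In AAV9-GFP hearts there were 1.80 ± 0.261 Tpm2 counts per 1000 Tpm1 counts after sham surgery and 3.87 ± 0.592 after TAC (SD, n = 4 mice each). That is a 2.14-fold higher ratio, higher in every mouse (exact permutation p = 0.0286, adjusted p = 0.0714). In AAV9-Cardinal hearts the ratio went from 1.67 ± 0.205 to 2.40 ± 0.247 per 1000, 1.44-fold and higher in every mouse (exact permutation p = 0.0286, adjusted p = 0.0714). Between the viruses in TAC hearts it was lower with AAV9-Cardinal in every mouse, by -0.68 on the log2 scale (exact permutation p = 0.0286, adjusted p = 0.0714). The test of the difference in response gave -0.57 (exact permutation p = 0.0722, adjusted p = 0.135). Even at its highest, Tpm2 made up 0.855% ± 0.130 (SD, n = 4) of Tpm1 and Tpm2 per exon length, in AAV9-GFP TAC hearts.

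The ratio of Tpm3 to Tpm1 moved the same way to a smaller extent. It was 5.48 ± 0.224 per 1000 in AAV9-GFP sham hearts and 8.04 ± 0.734 after TAC (exact permutation p = 0.0286, adjusted p = 0.0714), and 5.73 ± 0.402 and 6.81 ± 0.593 in AAV9-Cardinal hearts (exact permutation p = 0.0286, adjusted p = 0.0714). With either virus every TAC mouse was above every sham mouse. The difference in response, AAV9-Cardinal less AAV9-GFP, was -0.30 on the log2 scale (exact permutation p = 0.0163, adjusted p = 0.0714). With Tpm3-rs7 added to Tpm3, the ratio's difference between the surgeries in AAV9-Cardinal hearts had an exact permutation p of 0.0571, and its difference between the viruses in TAC hearts went from an exact permutation p of 0.0571 to 0.0286.

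The ratio of Tnnt1 to Tnnt2 did not separate the groups. It was 2.17 ± 0.321 per 1000 in AAV9-GFP sham hearts, 2.04 ± 0.300 in AAV9-GFP TAC hearts, 2.26 ± 0.365 in AAV9-Cardinal sham hearts and 2.21 ± 0.144 in AAV9-Cardinal TAC hearts. The mice overlapped in every comparison, and exact permutation p was between 0.343 and 0.943.

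**Figure D5:**
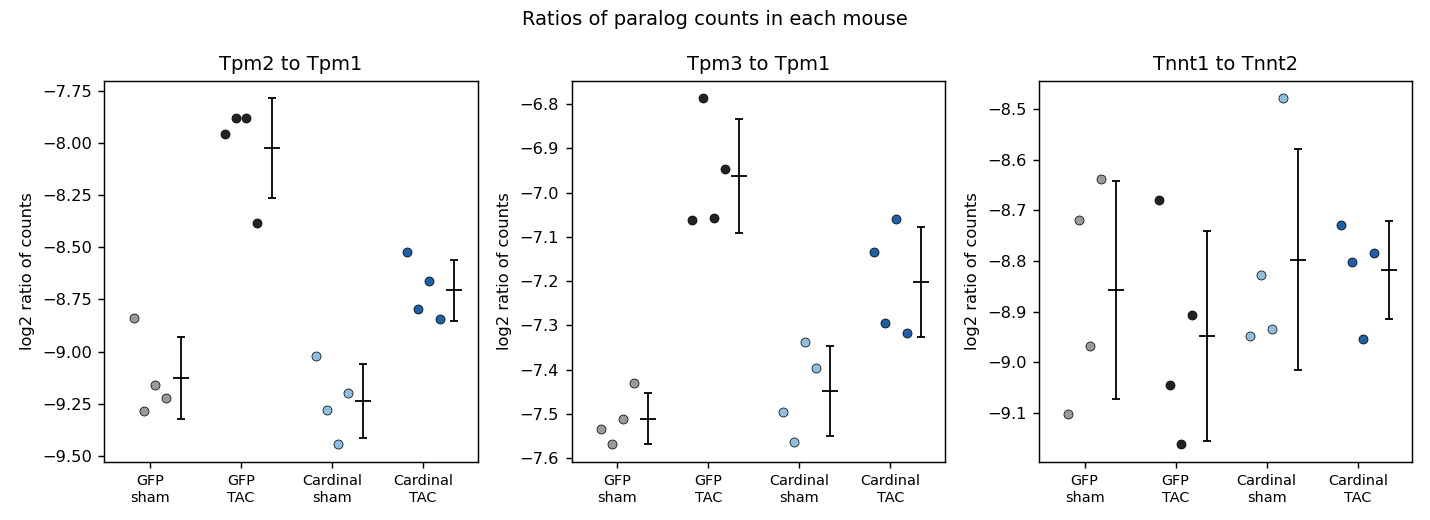
Log2 ratio of counts (y axis, which does not start at 0) of Tpm2 to Tpm1, Tpm3 to Tpm1 and Tnnt1 to Tnnt2 in each of 16 mice by group. The bar beside each column is the mean with its SD. The tropomyosin ratios are higher in every TAC mouse than in every sham mouse with the same virus, and the troponin T ratio overlaps.

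The subunits of the cardiac troponin complex did not keep a fixed proportion of counts. These ratios were chosen after their values were seen and have no test, and as ratios of counts they are not corrected for length. There were 3.62 ± 0.314 Tnnt2 counts per Tnnc1 count in AAV9-GFP sham hearts and 2.49 ± 0.158 in AAV9-GFP TAC hearts, and 3.54 ± 0.103 and 2.89 ± 0.118 with AAV9-Cardinal. For Tnni3 the ratio to Tnnc1 was 1.83 ± 0.114 and 1.14 ± 0.0546 with AAV9-GFP, and 1.84 ± 0.0767 and 1.36 ± 0.0909 with AAV9-Cardinal. In both ratios every TAC mouse was below every sham mouse with the same virus, and every AAV9-Cardinal TAC mouse was above every AAV9-GFP TAC mouse. For Tnnt2 to Tnnc1 this was close to a tie. The log2 ratio was 1.450 in AAV9-Cardinal TAC replicate 1 and 1.444 in AAV9-GFP TAC replicate 1. The CPM of Tnnt2 and of Tnni3 overlapped between the viruses in TAC hearts. Tnnt2 and Tnni3 moved more alike, with 1.98 ± 0.116 Tnnt2 counts per Tnni3 count in AAV9-GFP sham hearts and 2.19 ± 0.105 in AAV9-GFP TAC hearts, with overlap between the mice. With AAV9-Cardinal this ratio was 1.93 ± 0.107 after sham surgery and 2.12 ± 0.0579 after TAC, higher in every TAC mouse.

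Other genes of these structures were read from lists. Among 17 further thin-filament genes, of which 15 were tested, 3 rose and 3 fell under TAC with AAV9-GFP, and 2 rose and 1 fell with AAV9-Cardinal. Over all genes tested 8.49% rose and 8.92% fell with AAV9-GFP, and 3.10% and 3.38% with AAV9-Cardinal. Without AAV9-Cardinal TAC replicate 1, 4 of the 15 rose and 1 fell with AAV9-Cardinal. In that fit 644 of all 17075 genes rose and 1436 were called in either direction. Acta1, the skeletal actin of the sarcomere, went from 125 ± 27.6 to 2324 ± 321 CPM with AAV9-GFP (log2 fold change 4.22, SE 0.26, edgeR adjusted p = 8.70e-07). With AAV9-Cardinal it went from 118 ± 21.6 to 858 ± 349 CPM (2.86, SE 0.24, edgeR adjusted p = 8.98e-05). It was the member of these lists that differed between the viruses in TAC hearts with all mice (-1.44, SE 0.23, edgeR adjusted p = 0.0392). AAV9-Cardinal TAC replicate 1 had 1359 CPM of Acta1 against 571 to 815 CPM in the rest of its group. Without it, the AAV9-Cardinal TAC mean was 691 ± 122 CPM (SD, n = 3), the rise with AAV9-Cardinal was 2.55 (SE 0.18, edgeR adjusted p = 1.77e-05) and the difference between the viruses was -1.75 (SE 0.19, edgeR adjusted p = 0.000276). Fhod3 was also called between the viruses in that fit, higher with AAV9-Cardinal, against 3.13% of all genes tested. The difference in TAC response of Acta1 passed there too, against 0.463% of all genes tested. The call of Acta1 between the viruses was lost without any of AAV9-Cardinal sham replicates 1 to 4, AAV9-Cardinal TAC replicates 4, 5 or 6, AAV9-GFP sham replicates 2 or 3 or AAV9-GFP TAC replicates 3 or 7, with edgeR adjusted p up to 0.176.

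Nrap, which anchors actin at forming myofibrils, rose from 467 ± 18.6 to 757 ± 47.8 CPM with AAV9-GFP (log2 fold change 0.70, edgeR adjusted p = 0.000127). Nebl, the cardiac nebulette, fell from 268 ± 13.8 to 203 ± 16.7 CPM (-0.40, edgeR adjusted p = 0.000367), and Tmod4, a pointed-end capping tropomodulin of skeletal muscle, from 11.6 ± 1.73 to 8.52 ± 0.735 CPM (-0.44, edgeR adjusted p = 0.0168). The call of Tmod4 was lost without AAV9-GFP sham replicates 2 or 3 or AAV9-GFP TAC replicate 3, with edgeR adjusted p up to 0.0634. Fast-skeletal Tnnc2 was listed at 0 in every mouse, and fast-skeletal Tnnt3 and Tnni2 did not exceed 0.612 and 0.883 CPM.

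In the family of Mybpc3, Mybpc2, the fast-muscle form, was the gene tested of 4. It rose from 8.98 ± 2.87 to 28.5 ± 3.75 CPM with AAV9-GFP (log2 fold change 1.66, edgeR adjusted p = 9.45e-05) and from 8.42 ± 2.37 to 17.3 ± 2.45 CPM with AAV9-Cardinal (1.03, edgeR adjusted p = 0.0117). Its relative rise was larger than that of Mybpc3 with either virus, though that difference was not tested.

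While Ttn itself did not pass the test, 6 of 20 genes whose products bind titin or act at its binding sites rose under TAC with AAV9-GFP and 0 fell, and 6 rose and 0 fell with AAV9-Cardinal. Over all genes tested 8.49% rose and 8.92% fell with AAV9-GFP, and 3.10% and 3.38% with AAV9-Cardinal. The median log2 fold changes of the list were 0.12 and 0.15, against 0.0050 and -0.00047 over all genes. Ankrd23 and Ankrd1, stretch-responsive ankyrin repeat proteins of the titin I-band, went from 161 ± 23.7 to 513 ± 76.0 CPM (log2 fold change 1.67, edgeR adjusted p = 4.87e-06) and from 752 ± 369 to 2559 ± 497 CPM (1.77, edgeR adjusted p = 0.00321) with AAV9-GFP. Fhl1, a LIM protein of the same region, went from 97.4 ± 7.07 to 209 ± 51.9 CPM (1.10, edgeR adjusted p = 0.00175). Ankrd2 had at most 0.432 CPM in AAV9-GFP sham mice and 0.923 to 2.17 CPM in AAV9-GFP TAC mice (edgeR adjusted p = 0.0206), a level near the detection limit. That call of Ankrd2 was lost without AAV9-GFP sham replicates 1, 3 or 4 or AAV9-GFP TAC replicate 7, with edgeR adjusted p up to 0.0611. With AAV9-Cardinal, Actn2 and Ankrd1 lay just past the threshold (edgeR adjusted p = 0.0464 and 0.0488). The call of Ankrd1 was lost without any of AAV9-Cardinal sham replicates 1 to 4 or AAV9-Cardinal TAC replicates 1, 5 or 6. It was also lost without AAV9-GFP sham replicate 2 or any AAV9-GFP TAC replicate, with edgeR adjusted p up to 0.134. Without AAV9-Cardinal TAC replicate 1, 6 of the 20 rose, with Ldb3 in place of Ankrd1, as did 644 of all 17075 genes.

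Of 10 RNA-binding proteins known to set exon use in titin, troponin T or tropomyosin transcripts, 2 fell under TAC with AAV9-GFP and 0 passed the test with AAV9-Cardinal, where 8.92% and 3.38% of all genes tested fell. Rbm20, the main regulator of titin splicing, fell from 218 ± 13.3 to 166 ± 17.0 CPM (log2 fold change -0.39, edgeR adjusted p = 0.00134). With AAV9-Cardinal its values were 218 ± 12.5 and 185 ± 8.45 CPM (-0.24, edgeR adjusted p = 0.0514). Without AAV9-Cardinal TAC replicate 1, AAV9-GFP TAC replicate 1 or AAV9-GFP TAC replicate 7, Rbm20 passed with AAV9-Cardinal too, with edgeR adjusted p of 0.0430, 0.0212 and 0.0468. Rbfox1 fell from 37.8 ± 2.86 to 12.1 ± 8.57 CPM with AAV9-GFP (-1.65, edgeR adjusted p = 0.0101). For neither gene was the response shown to differ between the viruses, with edgeR adjusted p of 0.621 and 0.609 for the interaction.

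Markers of cell types were read beside these results. Over all genes tested 8.49% rose and 8.92% fell under TAC with AAV9-GFP, and 3.10% and 3.38% with AAV9-Cardinal. The summed level of 6 cardiomyocyte markers ranged from 33555 to 34038 CPM in AAV9-GFP sham hearts and from 24302 to 29796 CPM in AAV9-GFP TAC hearts. Myh6 was the largest part of this sum, with 19200 ± 476 CPM after sham surgery and 15329 ± 1845 CPM after TAC. Of the 6 markers 4 fell, and the 2 not called were Actn2 (log2 fold change 0.20) and Myl3 (-0.06). With AAV9-Cardinal the sum ranged from 32645 to 35710.3 CPM after sham surgery and from 29892 to 32995 CPM after TAC, where 1 rose and 1 fell. Without AAV9-Cardinal TAC replicate 1, 2 rose and 1 fell. In that fit 644 of all 17075 genes rose and 1436 were called in either direction. The part of these cardiomyocyte marker levels in the fall of Tnnt2, Tnni3 and Tpm1 was not tested. Fibroblast markers summed to 399 to 452 CPM in AAV9-GFP sham hearts and to 533 to 655 CPM after TAC, and 2 of 5 rose. With AAV9-Cardinal they summed to 384 to 425 CPM and 386 to 567 CPM, and 0 of 5 were called. Between the viruses in TAC hearts no marker passed with all mice. Without AAV9-Cardinal TAC replicate 1, Myl2 was higher with AAV9-Cardinal, and Col1a1, Col1a2, Dcn and the macrophage marker Cd68 were lower, against 3.13% of all genes tested.

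Smooth muscle uses Tpm2 and Tpm1. Its markers summed to 71.2 to 249 CPM in AAV9-GFP sham hearts and 77.2 to 89.7 CPM in AAV9-GFP TAC hearts. The high value came from Acta2 in AAV9-GFP sham replicate 4, with 219 CPM against 38.4 to 62.7 CPM in all other mice. Of the 4 smooth muscle markers 1 rose, Cnn1, from 0.480 ± 0.266 to 1.10 ± 0.254 CPM (edgeR adjusted p = 0.0291), a level near the detection limit. The 3 not called, Myh11, Acta2 and Tagln, had log2 fold changes of -0.19, -0.69 and 0.05. Of the 7 skeletal muscle markers 5 were at 0 in every mouse and the sum did not exceed 1.58 CPM, and the 3 atrial markers summed to at most 2.40 CPM. Endothelial markers summed to between 350.4 and 499 CPM and macrophage markers to between 55.1 and 77.9 CPM over all groups. Of the 4 endothelial markers 1, Cdh5, rose under TAC with AAV9-GFP (log2 fold change 0.25, edgeR adjusted p = 0.0106), where 8.49% of all genes tested rose.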

How the data were processed

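Poly(A)-selected RNA was sequenced as single-end 50-base reads. The authors deposited raw read counts per gene, with no normalization. The submitters' processing notes name FastQC, HISAT2 2.1.0, edgeR 3.26.1 and the build GRCm38, but the counting program, the annotation, the use of strand and the handling of reads with several matches are not given in the sources used here. Of 55573 genes, 55480 were named with GENCODE M21, and 93 were not.

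Counts were analysed with edgeR 4.0.16 in R 4.3.3 (TMM, expression filter for 4 groups leaving 16857 genes, quasi-likelihood fit of all 16 mice, contrasts, Benjamini-Hochberg adjustment). A total of 3 counts, taken as the detection limit, corresponds to 0.126 to 0.195 CPM and covers counting error only. P-values measure the spread between these samples. Mice of a group differed by more than sampling noise (chi-square per degree of freedom 5.32 to 15.9). Ratios used log2 counts with 0.5 added. The genes and lists were chosen with earlier results of these data known. Named list genes were the up to 4 per list with the largest TAC change among those past the threshold in AAV9-GFP hearts and at 1 CPM or more, and any that differed between viruses after TAC. On simulated counts for AAV9-GFP hearts (16631 genes, 200 changed), 48% of changes of 1.5-fold and 82% of 2-fold were called, with 5 false calls. In the data 2934 genes were called, which alters the adjustment, so these shares need not hold there. Alternatives were DESeq2 1.42.0, other scaling, no filter, fewer genes or mice, mouse number as a block, and sums with Tpm3-rs7, the last, like the refits of list genes, added after the data had been seen.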

Additional observations from a re-analysis of the deposited data

Results flagged for a closer look

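In 52 sets of 4 mice (9 genes, 3 ratios and the total count in each group), 4 held a mouse far from the other 3 by Dixon's test, where chance gives about 1 in 20. AAV9-Cardinal TAC replicate 1 had 4123 CPM of Tnnt2, against 4793 to 4919 CPM in the rest of its group. AAV9-GFP sham replicate 1 had 5900.3 CPM of Tpm1, against 6724 to 6883 CPM in the rest. The log2 ratio of Tpm2 to Tpm1 was -8.38 in AAV9-GFP TAC replicate 7 and between -7.96 and -7.88 in the rest. AAV9-Cardinal sham replicate 4 had 16441997 counts in total against 21603910 to 21786630 in the rest.

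The TAC response of the log2 ratio of Tpm3 to Tpm1 differed between the viruses by -0.30 (exact permutation p = 0.0163 over 4900 labelings), and missed the threshold after adjustment over 15 tests (adjusted p = 0.0714).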

How the results depend on the processing

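Tnni3, Tnnt2, Tpm1 and Tpm2 kept their calls under TAC with AAV9-GFP in every alternative. The number of genes called there went from 8 to 5 with no filter and to 5 with only the mice compared, where Tnnc1, Tnnt1 and Tpm3 were lost, and to between 5 and 8 with a mouse left out. With AAV9-Cardinal it was 3, between 1 and 3 with a mouse left out, and Tpm2 was lost with no filter. Between the viruses in TAC hearts it was 0, 3 with DESeq2, and 0 to 3 with a mouse left out; for the difference in response it was 0, 1 with DESeq2, and 0 to 1. The cause was not tested. A pairing of mice by number was not stated in the sources used here. Correlations of same-numbered mice lay between -0.04 and 0.21. They rest on 2 to 4 pairs per comparison, with no differently numbered mice set beside them, and cannot decide whether mice were paired. With mouse number as a replicate block 0 of the 9 genes passed under TAC with AAV9-Cardinal, and 6 with AAV9-GFP, where Mybpc3 and Tnnt1 were lost. Over all genes tested with AAV9-GFP, 2348 of 30343 passed with no filter, 2338 of 16306 with only the mice compared, and 2091 of 16857 with the block. With AAV9-Cardinal 615 of 30343 passed with no filter and 31 of 16857 with the block. The main fit called 2934 of 16857 genes with AAV9-GFP and 1092 with AAV9-Cardinal.

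Values near 0 changed sign. The log2 fold change of Ttn under TAC with AAV9-GFP was -0.0015 with RLE scaling and with DESeq2, -0.00763 with no filter, -0.00252 without mitochondrial genes, -0.00138 with only the mice compared, -0.039 with the block, and -0.038 to 0.072 with a mouse left out. Between the viruses in sham hearts Ttn was -0.0021 with no filter and -0.034 to 0.047 with a mouse left out, Mybpc3 -0.081 to 0.00018, Tnnt1 -0.16 to 0.048 and Tpm3 -0.067 to 0.040. In TAC hearts Tnnc1 was -0.035 with the block and -0.0060 to 0.044. Under TAC with AAV9-Cardinal Tnnt1 was -0.17 to 0.031 and Tpm1 -0.075 to 0.0046, and the difference in response of Tpm3 was -0.12 to 0.0075. With Tpm3-rs7 added, the log2 ratio of Tpm3 to Tpm1 differed by 0.24 between the surgeries with AAV9-Cardinal (exact permutation p = 0.0571) and by -0.25 between the viruses after TAC (exact permutation p = 0.0286). Paralog ratios with a prior count of 5 kept their side of the threshold.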
